A study of Homo sapiens with 13 samples.

Results

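The loci of 8 B-lineage transcription factor genes were examined for LEF1 and TCF7L2 peaks in Nalm6, a human B-cell precursor acute lymphoblastic leukemia line, grown with or without prednisolone. The members were all peaks that overlapped the hg19 spans of PAX5 (chr9, 36838 to 37035 kb), EBF1 (chr5, 158123 to 158527 kb), IKZF1 (chr7, 50344 to 50473 kb), IKZF3 (chr17, 37914 to 38021 kb), TCF3 (chr19, 1609 to 1652 kb), FOXO1 (chr13, 41130 to 41241 kb), BACH2 (chr6, 90636 to 91007 kb) or RUNX1 (chr21, 36160 to 36422 kb), each extended by 25 kb on both sides. These loci held 5852 of the 3429979 peaks in the 12 deposited lists, with 201 to 690 in a single list. Protein positions on DNA were read by CUT&RUN, in which an antibody guides a nuclease that releases the bound fragments for sequencing. The 4 groups were LEF1 antibody in control cells, LEF1 antibody after prednisolone, TCF7L2 antibody in control cells and TCF7L2 antibody after prednisolone, with 3 replicates from separate experiments in each. Prednisolone was given at 5 µM for 24 h, and all cells, controls included, were kept in medium with charcoal-stripped serum, which holds little steroid hormone of its own. The control cells are labelled untreated in one field and vehicle-treated in another, and are called controls here. All libraries came from 1 cell line, so the spread between replicates is that of repeated experiments in Nalm6. An IgG sample was not analysed here.

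LEF1 and TCF7L2 belong to the TCF/LEF family, whose members bind DNA through a high-mobility-group box and carry the output of canonical Wnt signaling when beta-catenin joins them. Prednisolone is a synthetic glucocorticoid that activates the glucocorticoid receptor and is a mainstay of leukemia therapy. The 8 genes encode regulators of the B lineage. TCF3 (E2A), FOXO1 and EBF1 act early in B-cell specification, PAX5 holds commitment to the lineage, the Ikaros zinc-finger proteins IKZF1 and IKZF3 take part in B-cell precursor differentiation, BACH2 is a repressor that acts in precursor and mature B cells, and RUNX1 is needed in blood stem cells and in early B-cell precursors.

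For scale and comparability, each list was ranked by the −log10 p of its peaks and the 20000 highest are called its top peaks. The lists ranged from 128863 to 395786 peaks, so equal list lengths turn a count at a locus into a share of the list. The 20000th peak had a −log10 q of 5.49 to 6.62 in the LEF1 lists and of 0.390 to 0.996 in the TCF7L2 lists, so many TCF7L2 top peaks were weakly supported by the peak caller. For TCF7L2 it was 0.996, 0.677 and 0.971 in controls and 0.612, 0.614 and 0.390 after prednisolone, without overlap. In TCF7L2 prednisolone 3, 7599 of the 20000 were drawn at random from 10998 tied peaks. Depth in reads was not known from these files. The libraries fell into 2 sets by the length of their shortest peak, control 1 with prednisolone 2 and 3 in one set and control 2 and 3 with prednisolone 1 in the other, for both antibodies (164 to 165 bp against 187 to 197 bp for LEF1, 193 to 201 bp against 158 to 167 bp for TCF7L2). What set that length is not given in the labels, and differences within each set are printed beside the pooled ones. Overlapping top peaks of the 12 lists were merged into 94425 regions, of which 183 lay in the 8 loci.

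The promoters of 4 of the genes are printed to show the sequence at their starts, near which the peaks below did or did not fall. At PAX5 and TCF3 a region over the 5′ end of the gene span, which is given in whole kb, held top peaks in several libraries. The TCF3 region ended at 1652145 on hg19, and whether it reached the printed start was not read, since the builds differ. The 5′ end itself held few or none at FOXO1 and BACH2. They are the 300 bases from 250 before to 50 after the gene start in RefSeq, build GRCh38.p14, minus strand, at chr9:37034219-37034518 for PAX5, chr19:1652566-1652865 for TCF3, chr13:40666592-40666891 for FOXO1 and chr6:90296794-90297093 for BACH2. They are matched to the peaks by gene, since the peaks are on hg19. Capitals mark E-box letters, CANNTG.
PAX5: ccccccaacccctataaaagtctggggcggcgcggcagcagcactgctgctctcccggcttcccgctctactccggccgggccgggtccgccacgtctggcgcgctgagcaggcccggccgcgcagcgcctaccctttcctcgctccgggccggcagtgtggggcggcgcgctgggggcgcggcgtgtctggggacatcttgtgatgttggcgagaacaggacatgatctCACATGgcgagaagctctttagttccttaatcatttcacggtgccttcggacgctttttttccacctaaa
TCF3: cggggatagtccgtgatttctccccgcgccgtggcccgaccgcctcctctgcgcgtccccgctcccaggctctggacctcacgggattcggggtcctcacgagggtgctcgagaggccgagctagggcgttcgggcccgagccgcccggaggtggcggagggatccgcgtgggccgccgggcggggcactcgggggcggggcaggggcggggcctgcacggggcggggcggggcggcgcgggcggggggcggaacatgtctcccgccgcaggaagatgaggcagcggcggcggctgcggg
FOXO1: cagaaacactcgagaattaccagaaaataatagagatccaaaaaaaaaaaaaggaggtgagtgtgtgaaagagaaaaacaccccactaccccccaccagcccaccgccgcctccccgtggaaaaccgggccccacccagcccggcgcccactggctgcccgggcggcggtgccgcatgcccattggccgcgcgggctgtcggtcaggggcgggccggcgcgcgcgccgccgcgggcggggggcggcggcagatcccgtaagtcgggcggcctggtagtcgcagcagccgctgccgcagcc
BACH2: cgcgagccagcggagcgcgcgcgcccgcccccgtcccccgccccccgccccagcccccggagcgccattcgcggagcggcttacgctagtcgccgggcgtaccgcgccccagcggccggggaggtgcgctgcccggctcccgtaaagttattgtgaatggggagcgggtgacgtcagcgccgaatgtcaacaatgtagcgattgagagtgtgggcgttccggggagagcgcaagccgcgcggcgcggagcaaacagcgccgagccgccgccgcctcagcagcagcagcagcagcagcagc
The TCF/LEF letters CTTTGAA and CTTTGAT, searched on both strands, stood in none of 9 RefSeq promoters of 7 of these genes, against 4.43% and 2.62% of all 35116 promoters of that length. The palindromic glucocorticoid receptor motif with a 3-base gap (0.00285% of all promoters) and the palindromic EBF1 motif (1.21%) were not found in these windows either. CANNTG stood in 4 of the 9, at EBF1, IKZF1 and PAX5, against 68.7% of all promoters. The RUNX letters TGTGGT stood in 1, at IKZF1, against 13.1%. The GC content of the printed promoters was 65% at PAX5, 78.3% at TCF3, 68% at FOXO1 and 73.3% at BACH2.

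LEF1 top peaks were denser in the 8 loci than over the genome. The control LEF1 libraries held 70, 63 and 64 top peaks there and the prednisolone LEF1 libraries 69, 59 and 62. In the TCF7L2 lists there were 51, 55 and 55 in control cells and 40, 33 and 41 after prednisolone. The loci cover 0.0654% of the genome, and the density of top peaks in them was 4.51 to 5.35 times the genome mean for LEF1, 3.90 to 4.20 times for TCF7L2 in control cells and 2.52 to 3.13 times for TCF7L2 after prednisolone. The genome mean counts unmappable sequence and gene-poor chromosomes, so this ratio describes the loci and does not set them apart from other active genes.

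Per megabase and pooled over treatments, LEF1 top peaks averaged 51.0 ± 6.98 (SD) over the 6 LEF1 libraries at IKZF3. FOXO1 followed with 50.7 ± 18.6, IKZF1 with 44.7 ± 7.07, EBF1 with 39.3 ± 5.29 and RUNX1 with 35.3 ± 5.73. The other 3 loci were lower, BACH2 at 17.8 ± 4.44, TCF3 at 12.5 ± 4.39 and PAX5 at 11.5 ± 3.98. Neighbours in this order overlapped in their libraries except at 1 step, between RUNX1 (lowest library 28.8) and BACH2 (highest library 23.8). For TCF7L2 the order was TCF3 (39.4 ± 13.0), FOXO1 (35.2 ± 6.41), IKZF3 (32.9 ± 12.4), IKZF1 (26.1 ± 9.12), EBF1 (25.3 ± 7.47), RUNX1 (23.5 ± 13.7), PAX5 (12.8 ± 5.38) and BACH2 (11.1 ± 4.91). Every pair of neighbours in the TCF7L2 order overlapped. The pooled order did not hold within each treatment or in the full lists. For LEF1, the highest group mean was at IKZF1 in controls (48.4, beside 46.7 at IKZF3) and at FOXO1 after prednisolone (55.9, beside 55.2 at IKZF3), while EBF1 led the full lists in controls with 407 peaks per megabase. For TCF7L2, TCF3 led in controls (50.2) but FOXO1 did so after prednisolone (31.1, beside 28.7 at TCF3). In the full TCF7L2 lists TCF3 was the lowest of the 8 loci among controls, at 147 peaks per megabase, and after prednisolone, at 82.4.

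**Figure D1:**
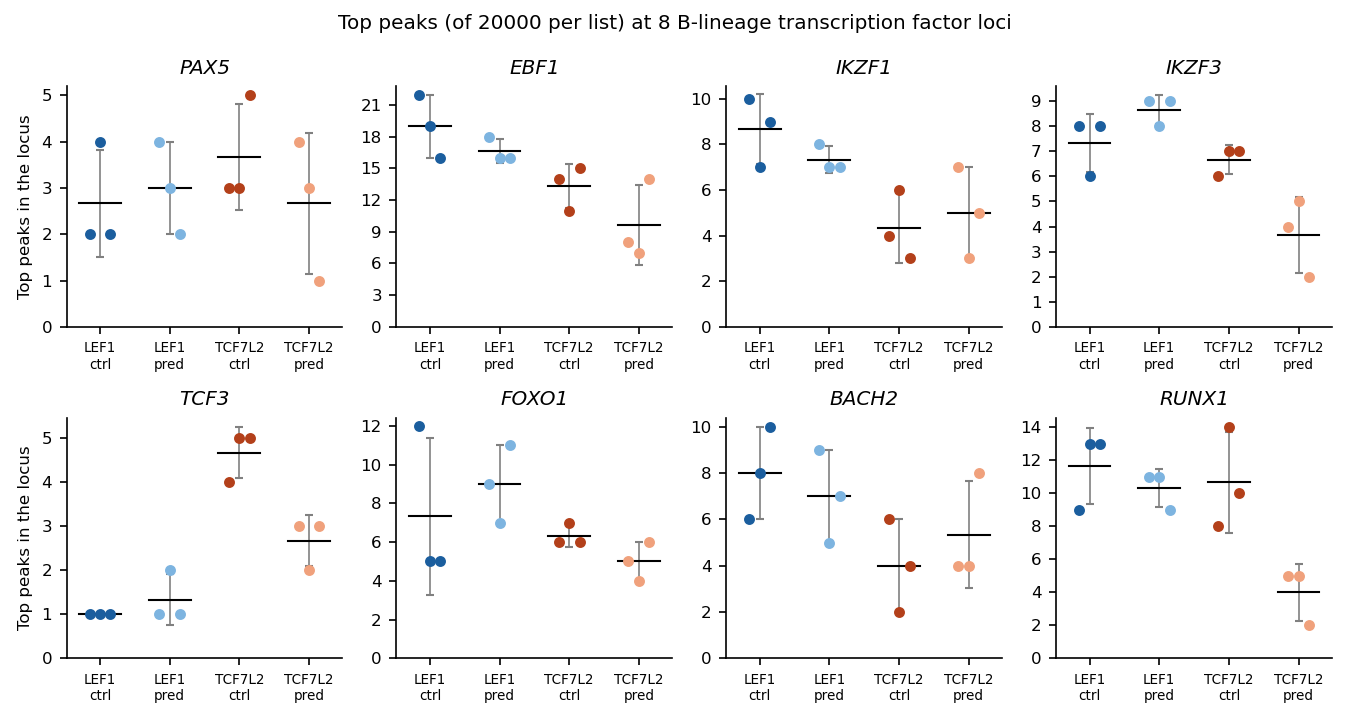
Number of top peaks (y axis, count out of 20000 per list) at each of the 8 loci for the 4 groups (x axis). Each point is a library, the black line is the group mean and the grey bar its SD (n = 3); TCF7L2 counts after prednisolone lie below all 3 controls at IKZF3, TCF3 and RUNX1.

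Of the 183 regions, 143 overlapped a gene span and 40 lay in the flanks; the spans make up 80.2% of the bases searched. A single library gave 91 of the 183 regions their only top peak (49.7%, against 62.9% of all regions in the genome), and these carry little weight. At the other end, 29 regions (15.8%) had a LEF1 top peak in all 6 LEF1 libraries, against 8.01% of all regions, and 4 (2.19%) had a TCF7L2 top peak in all 6 TCF7L2 libraries, against 1.91%. The 29 were spread as 9 at EBF1, 5 at RUNX1, 4 at FOXO1, 4 at IKZF1, 3 at IKZF3, 3 at BACH2, 1 at TCF3 and none at PAX5. Of the 26 at genes with a known 5′ end, 4 were centred within 5 kb of it and 17 over 25 kb away. The spans reach 404 kb and the share of bases at these distances was not computed. The counts therefore do not show a preference for or against gene starts. Other starts inside a gene, such as the RefSeq RUNX1 promoter, were not used. The median length of the 29 was 3058 bp, against 2462 bp for all regions of this kind in the genome. LEF1 summits of the 6 libraries lay within 400 bp of one another in 22 of the 29, with a median range of 272 bp and extremes of 33 and 5188 bp.

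**Figure D2:**
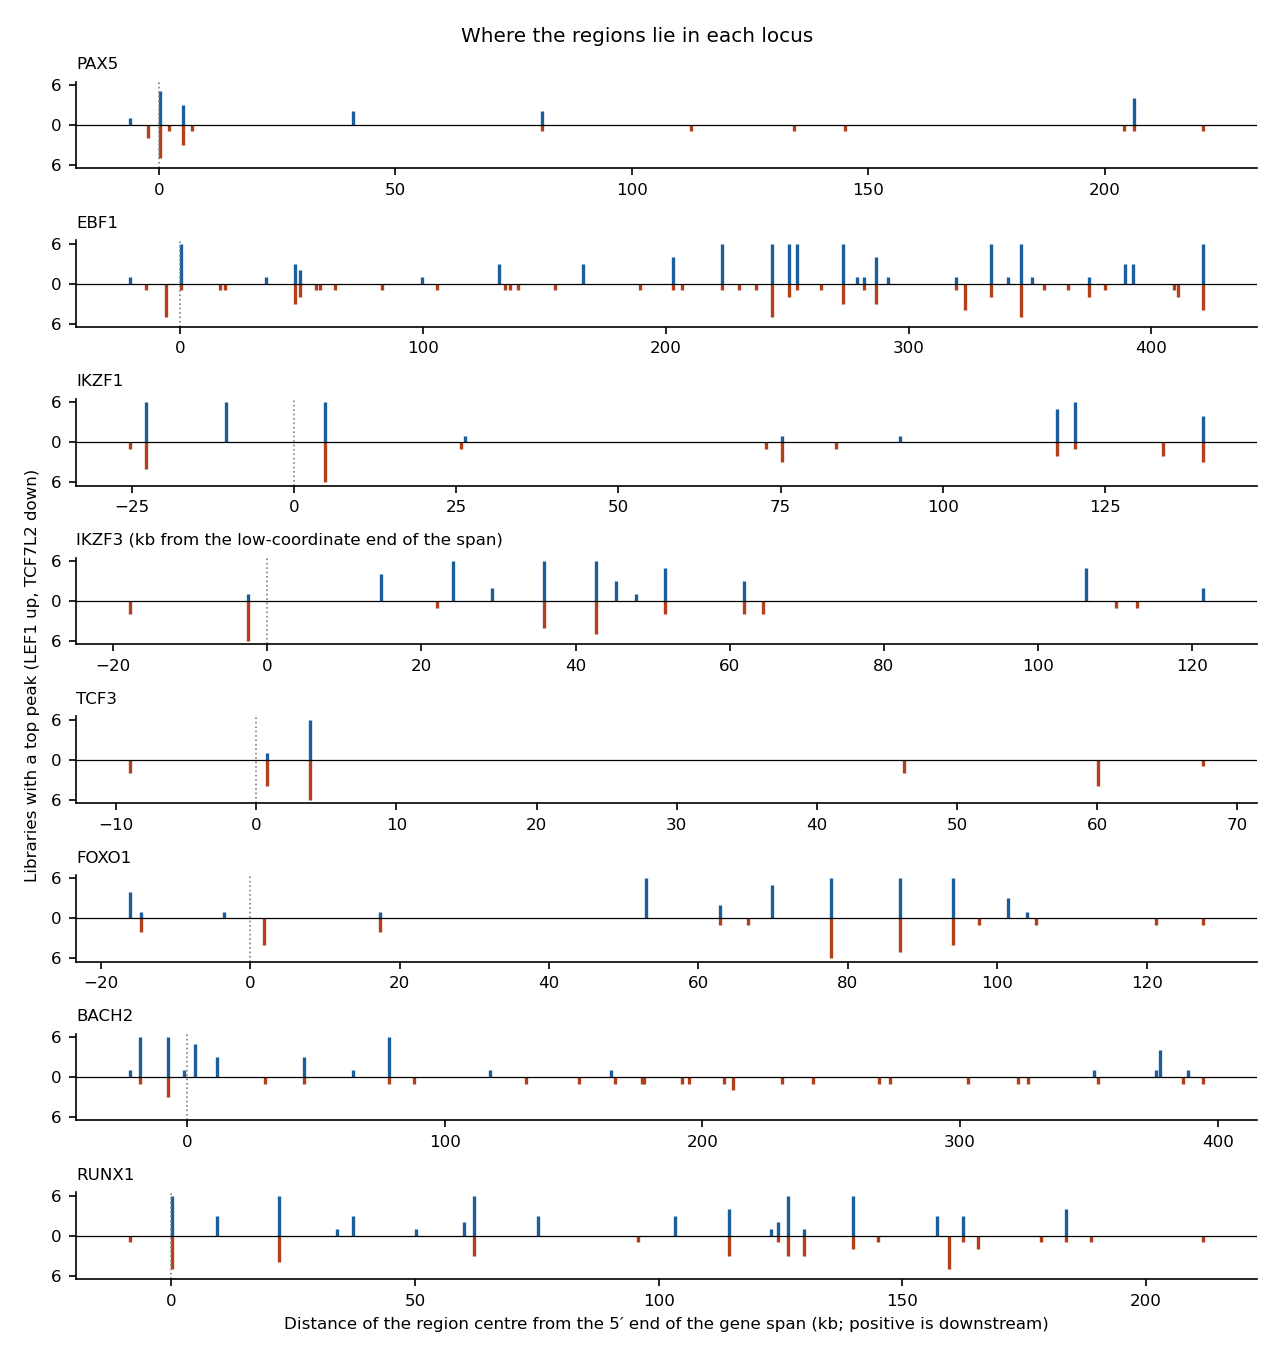
Position of each region (x axis, kb from the 5′ end of the gene span, or from the low-coordinate end of the span for IKZF3) and the number of libraries with a top peak there (y axis, LEF1 in blue upwards, TCF7L2 in red downwards, up to 6). Repeated LEF1 regions lie inside the EBF1, FOXO1, RUNX1 and IKZF3 genes, and PAX5 has none in all 6 LEF1 libraries.

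At FOXO1, which encodes a forkhead factor needed for early B-cell development, the region with the best LEF1 ranks of the 8 loci, judged by its weakest library, lay inside the gene. It spanned chr13:41159487-41166971, 77.8 kb from the 5′ end. LEF1 ranked there 388, 55 and 133 in the control lists and 128, 35 and 53 after prednisolone, with fold enrichments from the peak caller of 14.0, 19.4 and 17.2 and then 19.8, 24.5 and 22.2. TCF7L2 ranked 470, 1377 and 2676 in controls and 1907, 1449 and 857 after prednisolone. All 12 libraries thus had a top peak, and the ranks of the treatments overlapped for both antibodies. The median summits of the antibodies were 135 bp apart. Beyond it, at chr13:41149721-41158419 and chr13:41144447-41149369, LEF1 was again in all 6 libraries while TCF7L2 was lower after prednisolone. In the latter region TCF7L2 ranked 2141, 2194 and 1681 in controls and 6555, 25878 and 79191 after prednisolone, without overlap. Nearer the gene start, at chr13:41186714-41189318, LEF1 ranked 10377, 13478 and 11201 in controls and 9455, 1880 and 5310 after prednisolone, and no TCF7L2 list held it among its top peaks. The region nearest the 5′ end, chr13:41238509-41239790, was a TCF7L2 region: 7439, 14747 and 9535 in controls, 8008 in prednisolone 1 and no peak at all in prednisolone 2 and 3. No LEF1 library had a top peak there.

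EBF1, a pioneer factor of B-cell specification, held the most regions, 51. Its best-ranked LEF1 region lay outside the span, 17.4 kb beyond the low-coordinate (3′) end at chr5:158101886-158109352, with LEF1 ranks of 1206, 2717 and 1807 in controls and 1036, 3915 and 795 after prednisolone. A run of repeated LEF1 regions followed in the distal part of the gene, between 223 and 346 kb from the 5′ end. The 5′ end itself, chr5:158525980-158527960, carried a LEF1 top peak in all 6 libraries, ranked 8997, 6405 and 7917 in controls and 3248, 4662 and 3254 after prednisolone. All 3 prednisolone ranks were better than all 3 control ranks. TCF7L2 had a top peak at this 5′ end in 1 library only. Its best region was 5.96 kb upstream, chr5:158531959-158533967, ranked 1745, 2703 and 3794 in controls and 13716, 24616 and 1244 after prednisolone, where no LEF1 library had a top peak. By repeated top peaks, LEF1 and TCF7L2 thus held neighbouring but different regions around the EBF1 start. The full lists held a TCF7L2 peak at the 5′ end in 4 libraries and a LEF1 peak at the upstream region in 4, so neither factor is shown to be absent.

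TCF3, which encodes the E proteins E12 and E47, had 1 repeated LEF1 region, at chr19:1646819-1649538, 3.82 kb inside the gene. LEF1 ranked 2178, 3409 and 5194 in controls and 1650, 1999 and 1744 after prednisolone, without overlap. TCF7L2 ranked 942, 956 and 624 and then 2662, 846 and 4807, again in all 6 libraries, but the median summits of the antibodies were 1489.5 bp apart. The region over the 5′ end, chr19:1650347-1652145, gave TCF7L2 ranks of 1052, 1455 and 815 in controls and 1380, 84187 and no peak after prednisolone. LEF1 had a top peak there in 1 of 6 libraries. The promoter printed above for TCF3 lies at this end of the gene, but whether the region reaches it was not read, since the builds differ.

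At PAX5 the highest region for TCF7L2 was the one over the 5′ end, chr9:37034159-37035395. LEF1 ranked there 13285, 37732 and 11823 in controls and 14303, 4317 and 3099 after prednisolone. TCF7L2 ranked 12244, 2724 and 6279 in controls and 1441, 8586 and 117601 after prednisolone. Each antibody had a top peak in 5 of 6 libraries, and their median summits were 34 bp apart. The best-ranked LEF1 region by its weakest library, chr9:36992856-36994970, 41.1 kb into the gene, reached the top peaks in only 2 LEF1 libraries. Apart from the 5′ end and chr9:37028479-37031514, where each antibody had a top peak in 3 libraries, no PAX5 region held more than 2 TCF7L2 libraries.

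IKZF1, which encodes Ikaros, had a top peak in all 12 libraries in a wide region, chr7:50343924-50353704, whose low-coordinate edge reached its 5′ end. The summits lay further inside the gene, at 50347102 to 50352290 for LEF1 and at 50346954 to 50352647 for TCF7L2. LEF1 ranked 3692, 3753 and 5430 in controls and 12450, 8649 and 3874 after prednisolone. TCF7L2 ranked 2030, 7077 and 15980 in controls and 16312, 8025 and 3083 after prednisolone. Both antibodies overlapped between treatments, and their median summits lay 3423.5 bp apart. The best LEF1 region was 120 kb into the gene at chr7:50462755-50465812, with ranks of 6242, 5924 and 4441 in controls and 7029, 8848 and 5349 after prednisolone. At chr7:50332797-50334246, 10.5 kb upstream of the 5′ end, LEF1 was in all 6 libraries and TCF7L2 in none.

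At IKZF3, which encodes Aiolos, a region inside the gene was among the strongest LEF1 positions of the control lists. At chr17:37947891-37951992 LEF1 ranked 153, 125 and 174 in controls and 57, 977 and 1278 after prednisolone, with fold enrichments of 9.63, 9.41 and 8.95 and then 12.7, 4.49 and 4.28. The prednisolone libraries lay on both sides of the controls. TCF7L2 ranked 777, 6113 and 9754 there in controls and 31371, 2373 and 29845 after prednisolone. Further on, at chr17:37955367-37958074, TCF7L2 ranked 1373, 615 and 837 in controls and 1767, 4083 and 119992 after prednisolone, without overlap, and LEF1 was in all 6 libraries. The best TCF7L2 region lay 2.51 kb outside the span on its low-coordinate side, chr17:37909691-37913288, where the neighbouring protein-coding gene in RefSeq's order is GRB7. TCF7L2 ranked there 4292, 1677 and 1447 in controls and 1433, 1528 and 1175 after prednisolone. LEF1 reached the top peaks there in 1 library.

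BACH2 held 36 regions, of which 3 were in all 6 LEF1 libraries and none in more than 3 TCF7L2 libraries. The best LEF1 region, chr6:90927686-90929879, was 78.2 kb into the gene and ranked 8853, 2733 and 2245 in controls and 5470, 4172 and 3093 after prednisolone. Upstream, 18.4 kb from the 5′ end at chr6:91024092-91026609, LEF1 ranked 2718, 1930 and 1752 in controls and 11498, 4063 and 6885 after prednisolone, all 3 weaker. The best TCF7L2 region, chr6:91011483-91017160, was also a LEF1 region in all 6 libraries and lay 7.32 kb upstream of the 5′ end. The region nearest the 5′ end held a top peak in 1 LEF1 library and in no TCF7L2 library.

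RUNX1 encodes the DNA-binding subunit of core-binding factor, a frequent target of leukemia translocations. Its best LEF1 region covered the 5′ end of the span, chr21:36418707-36424975, with LEF1 ranks of 2671, 1034 and 1490 in controls and 503, 920 and 1468 after prednisolone. TCF7L2 ranked 2361, 5249 and 6678 there in controls and 5693, 238418 and 3833 after prednisolone. In this region the median summits of the antibodies were 2126.5 bp apart, and the LEF1 summits, at 36423545 to 36423817, lay upstream of the span end. The best TCF7L2 region was 160 kb into the gene, chr21:36261164-36263519, ranked 6267, 6898 and 1282 in controls and 2687, 1427 and 24736 after prednisolone, with no LEF1 top peak in any library. The RUNX1 promoter in the RefSeq table, one of the 9 searched for motifs, starts 160603 bp from the gene's 5′ end in GRCh38.p14, about the same distance; the builds differ, so an overlap was not read. In another intragenic region, chr21:36398220-36401562, the antibodies had median summits 3 bp apart, with LEF1 in all 6 libraries and TCF7L2 in 4.

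**Figure D3:**
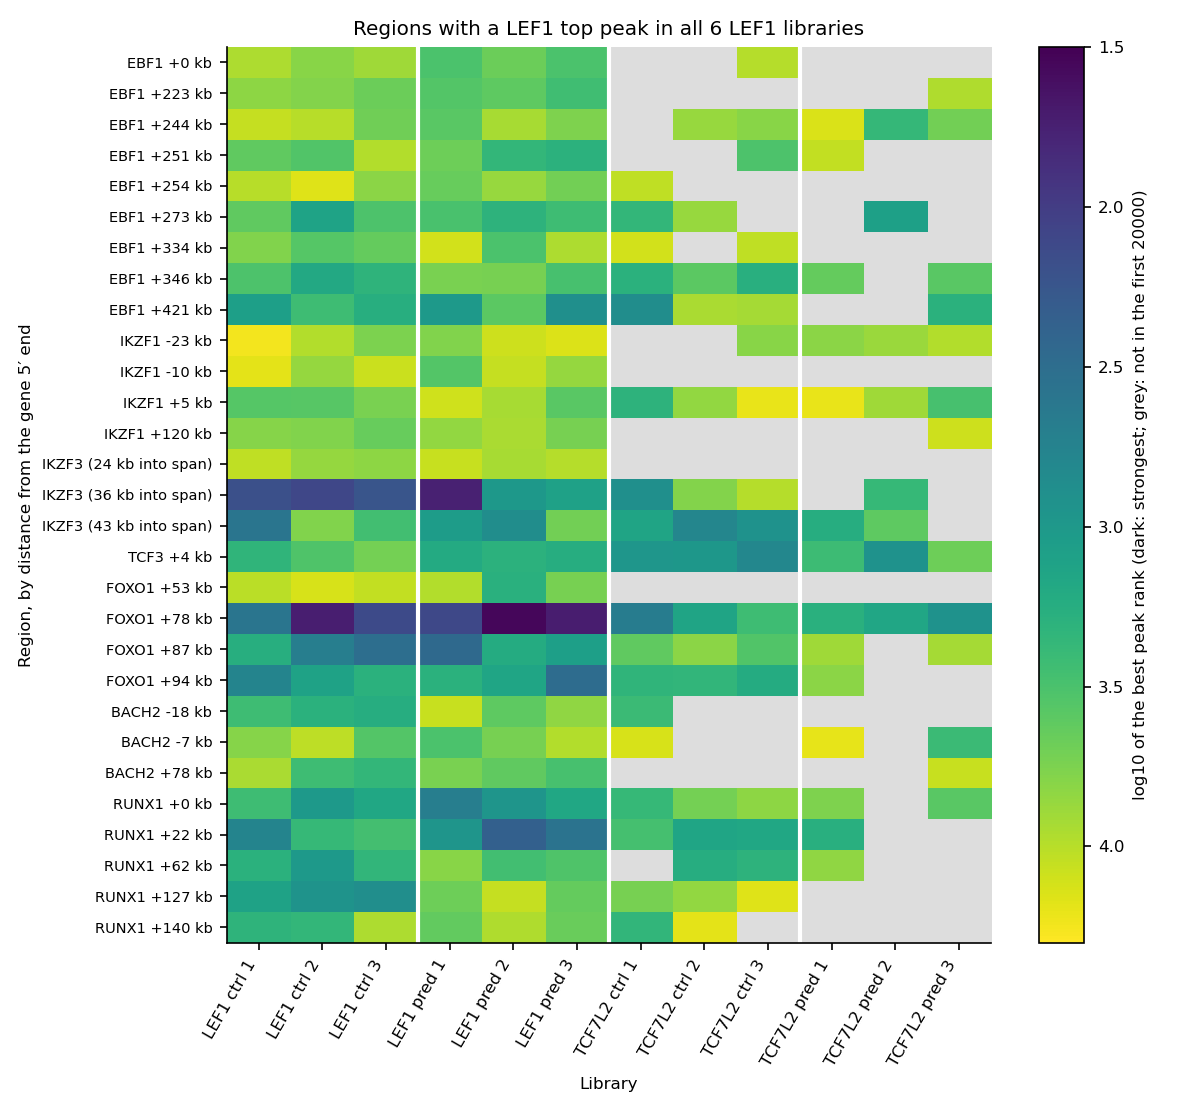
Best peak rank (colour, log10 scale, dark for the strongest, grey where the library had no top peak) of the 29 regions with a LEF1 top peak in all 6 LEF1 libraries, by library (x axis) and region (y axis, distance from the gene 5′ end). The FOXO1 region at 78 kb is the darkest row in the LEF1 columns, and many TCF7L2 cells are grey after prednisolone.

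The prednisolone comparison asked whether TCF/LEF peaks at these genes moved with glucocorticoid treatment. For LEF1, the 8-locus total did not separate the treatments: 70, 63 and 64 against 69, 59 and 62, a mean log2(number + 1) difference of -0.05 (prednisolone minus control), and -0.21 and 0.12 within the sets of libraries. No locus had LEF1 counts that separated the treatments, where 5.99% of 250-kb windows of the genome were lower and 7.07% higher without overlap. For TCF7L2 the total was lower in all 3 prednisolone libraries, by a mean log2 difference of -0.49, and -0.46 and -0.45 within the sets. With ties at the limit left out, the pooled difference was -0.57. The prednisolone TCF7L2 lists were also the more weakly supported over the genome, with a −log10 q at the limit of 0.390 to 0.614, against 0.677 to 0.996 in controls. What this weaker support did to the counts at the loci was not tested. Counts were lower without overlap at 3 of the 8 loci, beside 8.82% of windows genome-wide, and higher without overlap at none, beside 3.62%. The loci differ from the windows in length. With 3 against 3 libraries an exact permutation test cannot give a p below 0.1, so none of these is a call at 0.05.

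RUNX1 showed the widest TCF7L2 gap, 8, 14 and 10 top peaks in controls and 5, 5 and 2 after prednisolone, a log2(number + 1) difference of -1.26, with -1.08 and -1.10 within the sets. IKZF3 had 6, 7 and 7 in controls and 4, 5 and 2 after prednisolone (-0.77 on the same scale, -0.72 and -0.68 within the sets). TCF3 had 4, 5 and 5 and then 3, 2 and 3 (-0.64, with -0.53 and -0.58 within the sets). In LEF1 the same loci read 9, 13 and 13 against 11, 11 and 9 at RUNX1, 8, 6 and 8 against 9, 8 and 9 at IKZF3, and 1, 1 and 1 against 1, 2 and 1 at TCF3. The difference between the antibodies in this treatment effect was tested by an exact permutation of treatment labels within antibody. It reached an unadjusted p of at most 0.05 in 2 of the 8 loci, IKZF3 (-0.99, exact permutation p = 0.015) and TCF3 (-0.83, exact permutation p = 0.05), both lower for TCF7L2, beside 5.33% of windows, and in none in the other direction, beside 2.05%. After Benjamini-Hochberg adjustment of these permutation p-values over windows and loci neither passed (adjusted p = 0.653 and 0.675). The other loci overlapped in TCF7L2: 14, 11 and 15 against 8, 7 and 14 at EBF1, 6, 7 and 6 against 5, 4 and 6 at FOXO1, 3, 3 and 5 against 4, 3 and 1 at PAX5, 4, 6 and 3 against 7, 3 and 5 at IKZF1, and 6, 2 and 4 against 4, 4 and 8 at BACH2.

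Region by region, a LEF1 region was called gained where it held top peaks in each of the 3 prednisolone replicates and in none of the 3 controls, and lost in the reverse case. Of 102 regions with any LEF1 top peak, 3 were gained (2.94%, beside 2.84% of all LEF1 regions) and 1 was lost (0.980%, beside 1.94%). By rank, 10 were stronger after prednisolone without overlap (9.80%, beside 7.81%), the 3 gained included, and 5 were weaker (4.90%, beside 7.68%), the lost one included. Of 134 regions with any TCF7L2 top peak, none was gained (beside 0.367%) and 2 were lost (1.49%, beside 1.25%). None was stronger by rank (beside 1.04%) and 5 were weaker (3.73%, beside 2.33%). With 0 to 10 regions behind each share, none is read as a result about these loci. The LEF1 counts changed without single libraries: 5 gained without control 1, and 2 lost without control 1, control 2, prednisolone 1 or prednisolone 2 and 3 lost without control 3. For TCF7L2, 7 were lost without control 2, 6 without prednisolone 1 and 4 without prednisolone 3, and 2 were gained without control 3 and 1 without prednisolone 2 or prednisolone 3. Leaving out a library also loosens the call, since fewer libraries must then hold or lack a top peak. The shares over all regions were not recomputed for these counts.

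The gained LEF1 regions lay at RUNX1 and IKZF3. The clearest was at chr21:36411860-36413553, 9.29 kb into RUNX1, with ranks of 37439, 37451 and 93670 in controls and 4410, 3835 and 6965 after prednisolone. The second was deeper in RUNX1, at chr21:36258095-36260937, with 35841, 53412 and 28187 against 15190, 10674 and 8174. The third was inside IKZF3, at chr17:37975162-37976562, with 21673, 103696 and 62575 against 18468, 6320 and 9103, where the first prednisolone rank lies just inside the limit of 20000 and the first control rank just outside it. The lost LEF1 region was in distal EBF1, chr5:158134010-158135150, with 14191, 16474 and 19034 against 228316, 46588 and 113117. Ranks past 20000 come from lists of unequal length and show only that the full list still held a weaker peak. Every gained or lost region had such peaks in the full lists, and with absence from the full lists as the criterion none was gained or lost for either antibody.

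The lost TCF7L2 regions were neighbours inside RUNX1. At chr21:36291296-36292964 TCF7L2 ranked 5435, 13860 and 8174 in controls and 106663, 258900 and 27776 after prednisolone. At chr21:36294350-36296585, 127 kb into the gene, it ranked 5274, 7047 and 14773 and then 308158, 24969 and 65694. LEF1 ranked in the latter region 1311, 872 and 767 in controls and 4791, 11298 and 4325 after prednisolone, with fold enrichments of 13.5, 17.4 and 16.3 against 9.88, 6.81 and 9.61. It was the 1 region of the 8 loci in which both antibodies were weaker without overlap, 1 of 183 or 0.546%, beside 0.336% of all regions, a share near the background. LEF1 kept a top peak there in all 6 libraries. None of the 183 was stronger for both, beside 0.263%.

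**Figure D4:**
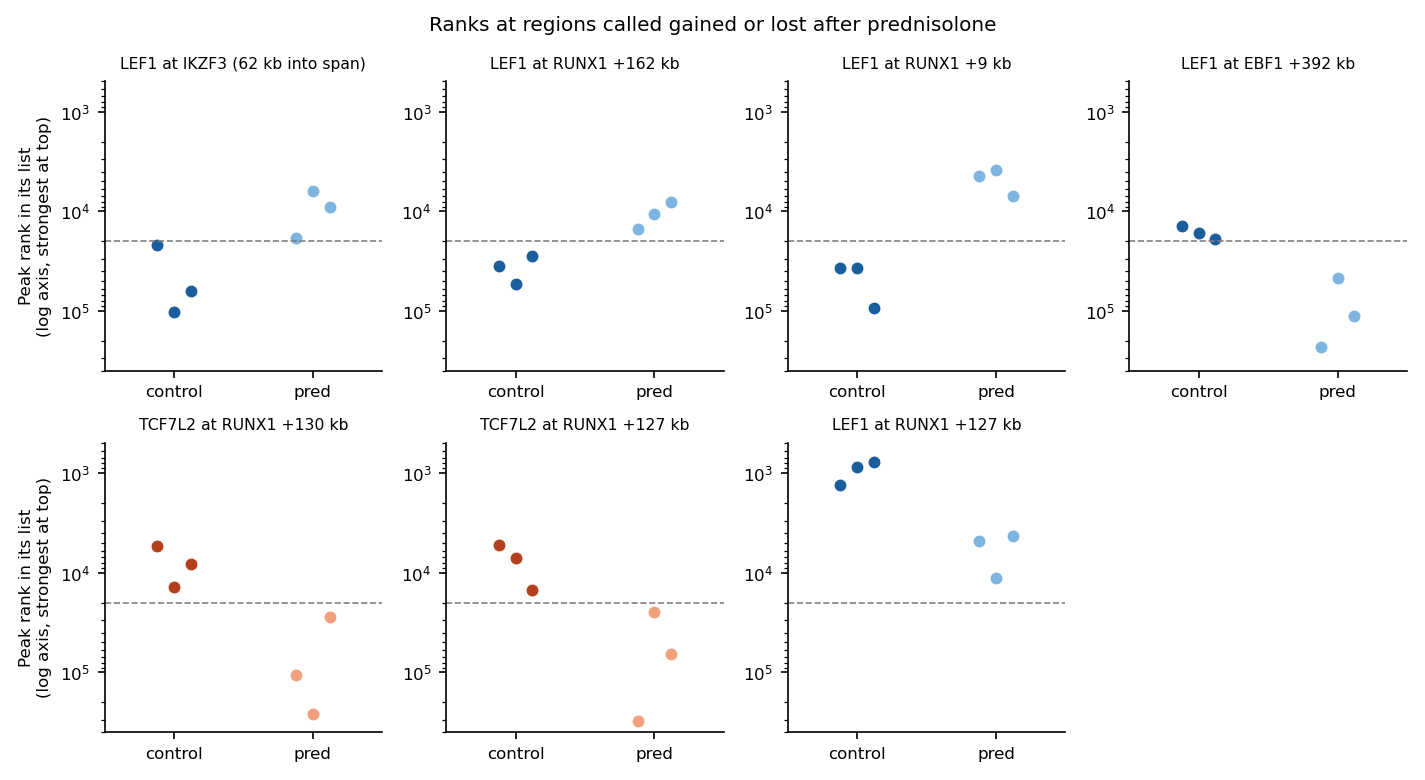
Peak rank (y axis, log scale, strongest at the top) in each control and prednisolone library (x axis) at the regions called gained or lost, with LEF1 at the RUNX1 region lost for TCF7L2 in the last panel. The dashed line is rank 20000, the limit of the top peaks; points below it are weaker peaks of the full lists, whose lengths differ.

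The antibodies were compared locus by locus over all 12 libraries, with an exact two-sided permutation of antibody labels within treatment (400 relabellings, smallest p 0.005), and p-values were adjusted by Benjamini-Hochberg over the genome's 250-kb windows and the 8 loci together. At an unadjusted p of at most 0.05, 28.1% of windows had more LEF1 and 11.7% more TCF7L2. EBF1 had more LEF1: 22, 19, 16, 18, 16 and 16 LEF1 top peaks (controls first) and 14, 11, 15, 8, 7 and 14 for TCF7L2, with no overlap. The log2(number + 1) difference, TCF7L2 minus LEF1, was -0.63 (exact permutation p = 0.005, adjusted p = 0.0348), and -0.63 within each set. EBF1 was the 1 locus of the 8 with an adjusted p below 0.05. The share of windows passing the same adjusted limit was not counted, so this does not set EBF1 apart from the genome. With no overlap, its TCF7L2 count was necessarily the lower in 6 of 6 same-numbered library pairs.

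TCF3 was the 1 locus with more TCF7L2 at an unadjusted p of at most 0.05: 4, 5, 5, 3, 2 and 3 TCF7L2 top peaks against 1, 1, 1, 1, 2 and 1 for LEF1, a log2 difference of 1.08 (exact permutation p = 0.01, adjusted p = 0.0505, 0.77 and 1.39 within the sets). IKZF1 had more LEF1, 10, 7, 9, 8, 7 and 7 against 4, 6, 3, 7, 3 and 5 (-0.71, exact permutation p = 0.015, adjusted p = 0.0598, -0.85 and -0.56 within the sets). IKZF3 differed by -0.61 (exact permutation p = 0.03, adjusted p = 0.0917, -0.89 and -0.33 within the sets). RUNX1 differed by -0.69 (exact permutation p = 0.035, adjusted p = 0.101, -0.96 and -0.42 within the sets) and BACH2 by -0.64 (exact permutation p = 0.04, adjusted p = 0.112). At BACH2 the difference was -0.03 in one set and -1.24 in the other. At BACH2 the difference also came to -0.08 (exact permutation p = 0.865) when the span was not extended. The comparison missed the unadjusted threshold at FOXO1 (-0.41, exact permutation p = 0.13) and PAX5 (0.08, exact permutation p = 0.755). The RUNX1 p rose above 0.05 without LEF1 prednisolone 1 or 2 (0.065), TCF7L2 control 1 (0.055) or TCF7L2 prednisolone 3 (0.06), and the BACH2 p did so (0.055 to 0.09) without any 1 library except LEF1 prednisolone 2, TCF7L2 control 1 and TCF7L2 prednisolone 3. With peaks taken at a −log10 q of at least 5 the TCF3 difference was 0. The LEF1 lists then held 21764 to 27309 peaks and the TCF7L2 lists 1271 to 3524, so similar counts were a larger share of the TCF7L2 lists. IKZF1 came to -0.43 (exact permutation p = 0.38) with the 5000 highest peaks per list and to -0.12 (exact permutation p = 0.58) with the full lists. IKZF3 turned to 0.36 (exact permutation p = 0.24) with the 5000 highest peaks. FOXO1 reached the unadjusted threshold, with more LEF1, under each other list length: -0.65 (exact permutation p = 0.05) with 5000 peaks, -0.49 (0.01) with 50000 and -0.63 (0.01) with full lists. At the q limits it was -2.27 (exact permutation p = 0.005) at a −log10 q of at least 5 and -2.90 (0.005) at 2. A q limit leaves the antibodies with lists of unequal length, so the values at the q limits mix list length with the locus and add no support.

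Sharing between the antibodies was read from regions with a top peak in all 3 libraries of a group. Of 102 LEF1 regions, 35 met this in controls (34.3%, beside 30.6% genome-wide) and 39 after prednisolone (38.2%, beside 31.1%). Of 134 TCF7L2 regions, 20 did in controls (14.9%, beside 6.86%) and 7 after prednisolone (5.22%, beside 3.77%). In control cells 12 of the 35 LEF1 regions were also TCF7L2 regions by this measure, 34.3% (95% Clopper-Pearson interval 19.1 to 52.2), beside 22.5% over the genome, and they made up 60% of the 20 TCF7L2 regions. After prednisolone 5 of 39 were, 12.8% (4.30 to 27.4), beside 11.6% over the genome, or 71.4% of the 7 TCF7L2 regions. The intervals cover counting error only and overlap between treatments. Regions with all 6 LEF1 libraries and no TCF7L2 library numbered 3 of 183 (1.64%, beside 1.57%), at FOXO1, IKZF1 and IKZF3. The reverse pattern was found in none (beside 0.636%), and 3 regions, at FOXO1, TCF3 and IKZF1, had a top peak in all 12 libraries (1.64%, beside 0.714%). Where both antibodies had a top peak in at least 3 libraries, their median summits were within 200 bp in 15 of 23 regions and over 1000 bp apart in 5, among them the TCF3 and IKZF1 regions held by all 12 libraries.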

How the data were processed

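CUT&RUN libraries for LEF1 and TCF7L2 were analysed from 12 deposited peak lists, 3 replicates in each of 4 groups. Per the submitters' processing notes, MACS2 and hg19 were used; versions, filters and control use are not given in the sources used here. The columns used are the −log10 p and −log10 q that the authors deposited for each peak, and the peak's fold enrichment, a ratio, likewise deposited; the integer score the authors deposited was not used. The folds, p and q are the caller's own and served only to rank or describe peaks within a list.

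Peaks were ranked by −log10 p, then fold, with remaining ties broken at random (seed 20), since ties at rank 20000 held up to 10998 peaks. Top peaks overlapping by at least 1 bp were merged into regions. The 5′ end of a gene was the end of its span in whole kb. A region touching that point or the 1 kb above it in coordinate was counted as at the 5′ end. Counts were compared as log2(number + 1). Background windows were 250 kb with a mean of at least 2 top peaks. Named regions were, per locus, the region with the best weakest rank for each antibody, every gained or lost region and the region at or nearest the 5′ end; others named in the text were chosen after their values were seen. The members, lists and tests were chosen with earlier results of these data known, and the windows and the test of the treatment difference between antibodies were added after seeing the data. Other genes of the B lineage were not analysed here. Alternatives varied the list length, the q limit, ties, merging, overlap, extension and replicates. The scripts were tested on simulated data and ran in Python 3.11.15 with numpy 2.4.6, pandas 2.3.3, scipy 1.17.1 and matplotlib 3.10.9.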

Additional observations from a re-analysis of the deposited data

Results flagged for a closer look

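At IKZF3 and TCF3 the treatment difference differed between the antibodies at an unadjusted p of at most 0.05, by an exact permutation of treatment labels within antibody (400 relabellings). The change in log2(number + 1) of TCF7L2 top peaks minus that of LEF1 was -0.99 at IKZF3 (exact permutation p = 0.015, adjusted p = 0.653), from -0.77 for TCF7L2 and 0.22 for LEF1. At TCF3 it was -0.83 (exact permutation p = 0.05, adjusted p = 0.675), from -0.64 and 0.19. Neither passed the adjustment over windows and loci, and 5.33% of windows reached an unadjusted p of 0.05 in this direction. Without TCF7L2 control 2 or control 3 the IKZF3 value was -0.96 (exact permutation p = 0.06). The IKZF3 value was -0.23 (exact permutation p = 0.7) with the 5000 highest peaks per list, -1.12 (0.095) with full lists, -0.91 (0.14) at a −log10 q of at least 5 and -0.68 (0.145) at 2. The TCF3 value was -0.33 (exact permutation p = 0.5) with loci not extended, -0.72 (0.2) with 5000 peaks, -0.76 (0.15) with full lists and -1.07 (0.06) at a −log10 q of at least 2. Without LEF1 prednisolone 2 the TCF3 value was -0.64 (exact permutation p = 0.1). At RUNX1 the difference was -1.11 (exact permutation p = 0.1, adjusted p = 0.734).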

How the results depend on the processing

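Of 396 recomputed values, 306 stayed the same by the rule for their kind, 44 moved, 32 lost and 5 gained a call, and 9 reversed. To stay the same, tested differences had to keep their direction and side of the threshold, and totals to move by less than the spread. Counts had to stay within a set fold of the main count, and shares inside the main interval. Where no cause is given, the cause was not tested. LEF1 gained regions numbered 1 with 5000 or 50000 top peaks, the full lists or a −log10 q of at least 2. LEF1 lost regions numbered 0 with 5000, 2 with 50000, 11 with full lists, 4 at q 5 and 6 at q 2. TCF7L2 lost regions numbered 1 with 5000 and at q 5, and 11 with full lists. Absence from the full lists gave 0 gained and 0 lost for LEF1 and 0 lost for TCF7L2. The shares over all regions were not recomputed for counts under other settings or with a replicate left out. These counts are not read as results about the loci. The LEF1 total over the loci changed by 0.20 with 5000, -0.20 with 50000, -0.23 with full lists, -0.20 at q 5 and -0.25 at q 2, and the TCF7L2 total by -0.68 with full lists, -1.55 at q 5 and -1.43 at q 2. The shared share of LEF1 regions fell to 8.51% in controls and 0% after prednisolone at q 5, and to 7.76% and 2.25% at q 2, where the lists of the antibodies differ in length. Loci with more TCF7L2 numbered 0 at q 5 and at q 2. A q limit does not hold the lists to equal length, so values at q 5 and q 2, reversed ones included, mix list length with the loci. Reversed antibody differences were IKZF3 with 5000 (0.36), PAX5 with 50000 (-0.59), full lists (-0.27), q 5 (-2.20) and q 2 (-2.49), TCF3 at q 2 (-0.29), and PAX5 without LEF1 prednisolone 3 (-0.011), TCF7L2 control 3 (-0.013) or TCF7L2 prednisolone 1 (-0.052), with a range of -0.052 to 0.28 over all libraries left out in turn. With each replicate left out in turn, the ranges were 3 to 5 LEF1 gained, 1 to 3 LEF1 lost, 0 to 2 TCF7L2 gained and 3 to 7 TCF7L2 lost regions, -0.12 to -0.0041 for the LEF1 total, -0.55 to -0.40 for the TCF7L2 total, 25% to 42.9% and 10.9% to 23.1% for the shared share in controls and after prednisolone, 3 to 4 loci with more LEF1 (5 with all libraries) and 1 with more TCF7L2.

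Same-numbered libraries did not deviate together (correlations of -0.0549 to -0.000884), so the number was not taken as a pairing. Control and prednisolone libraries of the same shortest-peak set correlated at 0.0267 to 0.0321 for LEF1 and 0.0146 to 0.0244 for TCF7L2. Those of different sets correlated at -0.0549 to -0.0130 and at -0.0373 to -0.00646. The sets thus mark a small structure in the counts, and they hold unequal numbers of control and prednisolone libraries. With the replicate block, 2 loci had more LEF1 at p of at most 0.05 (EBF1 and IKZF1, both exact permutation p = 0.03125, the smallest of 64 sign changes) and 0 had more TCF7L2. Depth was not known, and the weak caller support of TCF7L2 peaks limits those calls.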

Other observations

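Outside the comparisons, 40 EBF1, 25 BACH2, 18 RUNX1 and 12 PAX5 regions had a TCF7L2 top peak in some library, and none of these had one in all 6. FOXO1, IKZF3, TCF3 and IKZF1 had 1 region each with a TCF7L2 top peak in all 6. Only 1.91% of all regions in the genome had one in all 6, so its absence does not set a locus apart. At FOXO1 the median length of the 4 regions with LEF1 in all 6 libraries was 6204 bp, the highest of the 7 loci that had such regions, and at BACH2 it was 2518 bp, the lowest.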
